A study of Homo sapiens with 6 samples.

Results

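The cytosolic chaperonin TRiC, also called CCT, is built from 8 related subunits, encoded by TCP1, CCT2, CCT3, CCT4, CCT5, CCT6A, CCT7 and CCT8. The rows of the count table with these 8 symbols were taken, out of 25445 rows, and all 8 were among the 15957 rows with enough counts to be tested. The cells were MHCC-97H, a long-used line grown from a human liver cancer. They had been kept for 16 h in solvent alone (non-treated) or in 10 μM 6j, a compound derived from sophoridine, itself a plant alkaloid (6j treated), and 3 libraries were made from each group. All libraries thus come from 1 cell line, 1 dose and 1 time. The comparison asks how the transcripts of the 8 subunits differed between 6j treated and non-treated cells, and whether they moved together.

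The chaperonin is a double ring, and each ring holds 1 copy of every subunit in a fixed order. It takes newly made proteins into its cavity and releases them folded as the subunits bind and split ATP. Actin and tubulin are its best known clients, and many proteins with WD40 repeats, among them activators of the anaphase-promoting complex, also pass through it. Prefoldin hands clients over to it, and phosducin-like proteins bind beside the client. TCP1, CCT2, CCT4 and CCT5 make up the side of the ring with the stronger hold on ATP, and CCT3, CCT6A, CCT7 and CCT8 the weaker side. The ring needs every subunit, the genes are expressed together in most tissues, and heat shock factor is known to act on several of them.

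Windows around an annotated start of 3 subunit genes are shown because they hold a pair of inverted heat shock units. Such units are part of the motif that heat shock factor reads, and only the pair was searched for. Each window is 300 bases of RefSeq sequence (GRCh38.p14), from 250 bases before the annotated start to 50 after it, 5′ to 3′ on the strand of the gene, and the capitals mark the pair. The TCP1 window lies on the minus strand of chr6:159789553-159789852, the CCT2 window on the plus strand of chr12:69585639-69585938 and the CCT4 window on the minus strand of chr2:61888607-61888906.
TCP1: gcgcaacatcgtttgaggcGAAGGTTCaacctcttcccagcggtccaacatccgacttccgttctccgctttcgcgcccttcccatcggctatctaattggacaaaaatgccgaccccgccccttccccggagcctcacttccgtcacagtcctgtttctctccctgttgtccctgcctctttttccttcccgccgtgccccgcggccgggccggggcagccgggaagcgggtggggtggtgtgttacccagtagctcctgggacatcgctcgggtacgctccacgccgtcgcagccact
CCT2: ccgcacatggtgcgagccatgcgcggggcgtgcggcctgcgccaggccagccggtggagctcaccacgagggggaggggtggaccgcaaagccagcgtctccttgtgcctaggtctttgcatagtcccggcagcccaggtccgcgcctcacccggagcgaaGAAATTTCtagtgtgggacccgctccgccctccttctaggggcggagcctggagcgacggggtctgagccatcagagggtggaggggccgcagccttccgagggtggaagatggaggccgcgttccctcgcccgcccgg
CCT4: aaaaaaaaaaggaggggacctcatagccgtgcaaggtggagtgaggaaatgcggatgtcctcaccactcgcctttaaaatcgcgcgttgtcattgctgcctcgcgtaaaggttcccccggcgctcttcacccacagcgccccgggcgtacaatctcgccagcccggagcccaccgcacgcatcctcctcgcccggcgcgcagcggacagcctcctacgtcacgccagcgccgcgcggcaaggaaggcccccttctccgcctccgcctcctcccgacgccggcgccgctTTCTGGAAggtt
The TCP1 pair begins at position -231 from the annotated start and the CCT2 pair at -89 from the later of its 2 annotated starts. The CCT4 pair lies after the start, at position 38. These positions count from RefSeq starts. The GENCODE starts of TCP1 and CCT4, used below for distances to neighbours, differ from them, so the values cannot be combined. The TCP1 window also holds the start of MRPL18, a protein of the mitochondrial ribosome, at position 159789812 of chromosome 6, and the CCT4 window that of COMMD1, a regulator of copper and of NF-κB, at position 61888724 of chromosome 2. Over both strands, the pair with GAA first (GAANNTTC) was found in 2 of the 9 windows of the 7 subunits that had any. These were windows of TCP1 and CCT2, and 6.77% of all 35116 windows held it. The pair with TTC first (TTCNNGAA) was found in 1 of the 9, a window of CCT4, and in 7.74% of all windows. CCT2 and CCT4 have 2 annotated starts, and in both genes only 1 of the windows held a pair. The second CCT4 window, chr2:61888622-61888921, overlaps most of the one shown and ends just before the pair. The CCT2 window shown lies wholly inside the gene, whose GENCODE span begins at position 69585334. The window of the earlier CCT2 start, chr12:69585209-69585508, held no pair. No window of the 7 subunits held the E-box CACGTG, which 7.26% of all windows held, or the amino acid response motif TGATGNAA, which 3.62% held. The ETS core CCGGAAG was found in 1 of the 9, a window of CCT2, and in 10.3% of all windows. CCAAT was found in 4 of the 9, of CCT2, CCT3, CCT8 and TCP1, and in 34.6% of all windows. These are matches of letters and not measurements of binding.

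The libraries held 31533403 to 37919879 counts in non-treated cells and 35002336 to 38018349 in 6j treated cells, and levels are given as CPM, the count relative to a library total that was scaled by TMM factors of 0.982 to 1.024. The 8 subunits together took 0.393%, 0.373% and 0.380% of all counts in the non-treated libraries and 0.300%, 0.279% and 0.259% in the 6j treated libraries. Mitochondrial genes took 3.83% to 4.86% of counts in non-treated and 2.65% to 3.46% in 6j treated cells, and the part of this shift in the subunit results was not tested. Of 11 markers of hepatocytes and liver tumours, 8 had a mean under 1 CPM, among them ALB and AFP, and TTR was at 0 in every library, so the line showed its epithelial keratins KRT8 and KRT18 but not the secreted liver proteins. The summed level of this list was 905 to 1110 CPM in non-treated and 706 to 825 CPM in 6j treated cells. Almost all of it was KRT8 (mean 604.8 CPM in non-treated and 403.5 CPM in 6j treated cells) and KRT18 (429.8 and 344.5 CPM). Of the 3 markers tested, these 2 had a negative log2 fold change and 1 a positive one. KRT8 was lower in 6j treated cells (log2 fold change -0.58, edgeR adjusted p = 0.0211, but above the threshold, up to 0.108, without non-treated replicate 2 or 3 or treated replicate 1 or 2). KRT18 did not pass in edgeR (adjusted p = 0.0661) but did with the replicate block (0.00168) and in DESeq2 (0.0148). Of 8 markers of leukocytes, endothelium and fibroblasts, PTPRC and COL1A2 were at 0 in every library, and the summed level of the 8 was 265 to 325 CPM and 260 to 320 CPM in the respective groups. Most of this sum was COL1A1, a collagen chain (mean 244 CPM in non-treated and 231 CPM in 6j treated cells), followed by the lysosomal macrophage marker CD68 (51.4 and 46.7 CPM), neither of which passed.

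All 8 subunits were lower in 6j treated cells and passed the test. Their median log2 fold change was -0.45, with a range from -0.56 to -0.34. A row passed at a Benjamini-Hochberg adjusted p under 0.05 in edgeR's quasi-likelihood test, fitted over all rows. Nothing in the sources says that the replicates were separate cultures, so p-values measure the spread between these libraries. Over all rows tested, 4.37% passed as lower and 4.79% as higher, and the median change was 0.0046 on the log2 scale. Among the 861 rows with a mean level at least that of the lowest subunit, 9.87% passed as lower and the median was -0.05. The 3 treated libraries lay below the 3 non-treated ones for each of the 8 subunits, which was so in 15.8% of all rows. In percent of the non-treated mean, CCT8 fell by 21.2% and CCT3 fell by 32.3%, with the others between them, and no subunit reached the fold change of 1.5 that the study asked of a differentially expressed gene (DEG), beside a p under 0.05. Of all rows, 1.12% were lower past this fold and also passed the test. In bulk libraries, fewer cells of a kind and less RNA per cell cannot be told apart, and a CPM is a share of the library.

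**Figure D1:**
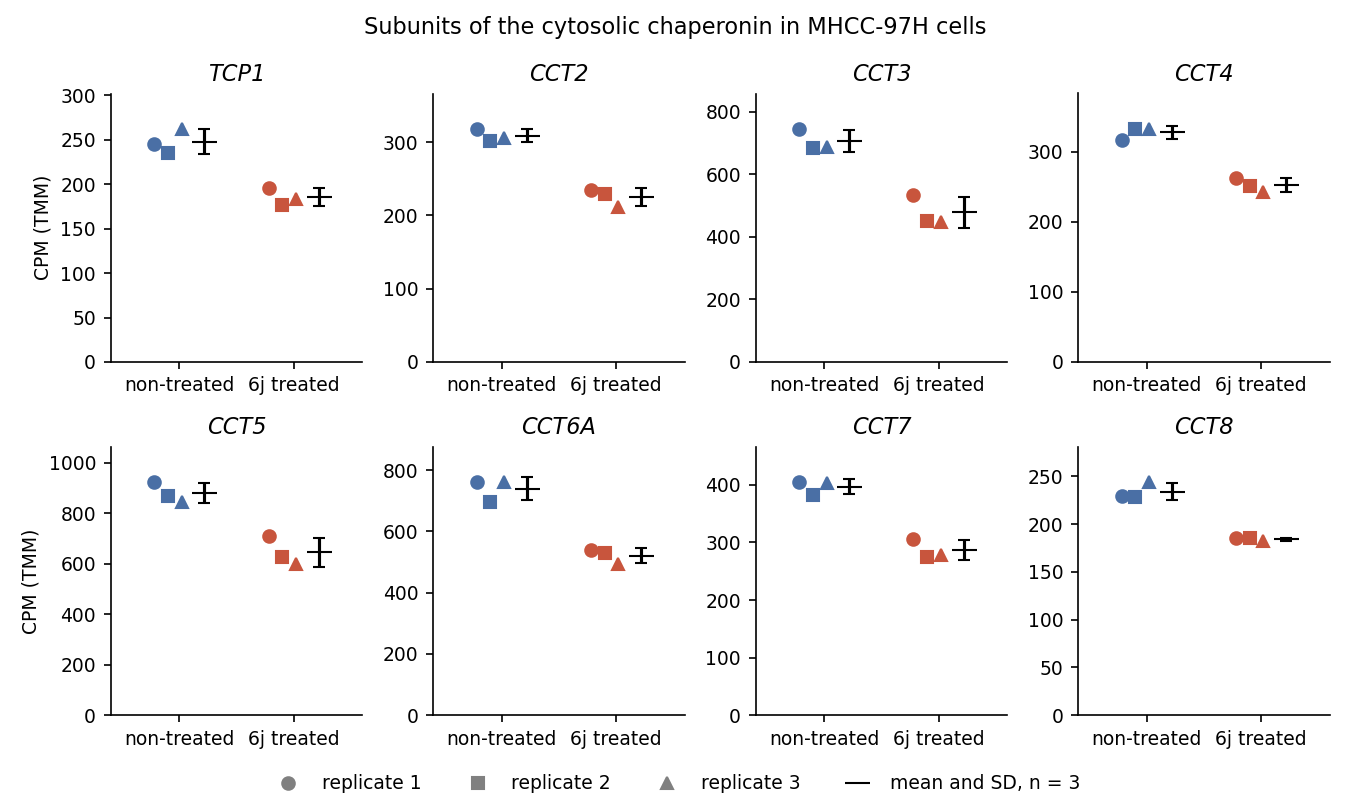
Level of each subunit (CPM scaled by TMM, axes from 0) in the 3 non-treated (blue) and 3 6j treated (red) libraries, with marker shapes for the replicate number and bars for the mean and SD (n = 3). In all 8 panels every red point lies below every blue point, and the means differ most, in percent, in CCT3.

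On the side of the ring with the stronger hold on ATP, TCP1, the alpha subunit and the first of the family to be named, was at 246, 235 and 263 CPM in the non-treated libraries and at 196, 177 and 183 CPM in the 6j treated libraries. The lowest non-treated library stood clear of the highest treated one, and the log2 fold change was -0.42 ± 0.08 (SE, n = 3 per group, edgeR adjusted p = 0.0178). The beta subunit CCT2, which has also been described as an autophagy receptor for aggregates, measured 319, 302 and 306 CPM against 234, 229 and 211 CPM. Its non-treated libraries were tight (309 ± 8.88 CPM, SD) and its difference was -0.46 ± 0.08 on the log2 scale (edgeR adjusted p = 0.0117). The delta subunit CCT4 was at 317, 333 and 333 CPM without 6j and at 263, 252 and 243 CPM with it. This was the only subunit for which non-treated replicate 1 was the lowest of its group, and the log2 fold change was -0.37 ± 0.08 (edgeR adjusted p = 0.0198). The epsilon subunit CCT5, which like CCT4 can form rings by itself when made in bacteria, had the highest counts of the family, with 925, 871 and 845 CPM in non-treated and 710, 627 and 599 CPM in 6j treated cells. Treated replicate 1 stood above the other treated libraries, and CCT5 had a log2 fold change of -0.45 ± 0.09 (edgeR adjusted p = 0.0220).

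On the weaker side of the ring, the gamma subunit CCT3 was at 747, 685 and 687 CPM in the non-treated libraries and at 535, 452 and 448 CPM in the 6j treated libraries. Replicate 1 was the high library in both groups, and the fall, -0.56 ± 0.10 on the log2 scale (SE, edgeR adjusted p = 0.0119), was the largest of the 8. The zeta subunit CCT6A, the widely expressed one of a pair of zeta genes, measured 762, 696 and 760 CPM against 539, 529 and 492 CPM. The groups did not overlap, and the log2 fold change was -0.51 ± 0.08 (edgeR adjusted p = 0.0113). The eta subunit CCT7 was at 405, 382 and 404 CPM without 6j and at 306, 274 and 278 CPM with it. Its log2 fold change of -0.47 ± 0.08 (edgeR adjusted p = 0.0119) was close to the median of the family. The theta subunit CCT8 had 229, 228 and 244 CPM in non-treated cells and 185, 185 and 183 CPM in 6j treated cells. CCT8 had the smallest fall, -0.34 ± 0.07 (edgeR adjusted p = 0.0224), and the tightest treated libraries of the family (SD 1.56 CPM).

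The test depended on single libraries. The direction could hardly turn with 1 library left out, since the treated libraries all lay below the non-treated ones for each subunit. Without non-treated replicate 1, none of the 8 subunits passed in edgeR (adjusted p 0.0694 to 0.115), and without treated replicate 2 none passed either (0.0571 to 0.101). Without non-treated replicate 2, 5 subunits passed, without non-treated replicate 3, 4 passed, and without treated replicate 3, 7 passed. All 8 passed without treated replicate 1. The number of rows passing in the whole table fell likewise, from 1462 with all libraries to 202 without non-treated replicate 1 and 217 without treated replicate 2. Passing as lower were 697 of 15957 rows with all libraries, 63 of 16315 without non-treated replicate 1 and 65 of 16295 without treated replicate 2. Without non-treated replicate 2 or 3 this was 258 of 16373 and 261 of 16364 rows. Without treated replicate 3 or 1 it was 504 of 16358 and 782 of 16301 rows. In each of these fits all 8 subunits were lower, as that order of the libraries implies, with log2 fold changes between -0.65 and -0.31.

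The replicate numbers were taken to pair the libraries, because same-numbered libraries deviated together in these same data, while no label states a pairing. All 8 subunits were lower in each of the 3 pairs. Any other pairing would give the same, since the treated libraries all lay below the non-treated ones. The median log2 ratio over the 8 was -0.39 for the libraries numbered 1, -0.40 for those numbered 2 and -0.53 for those numbered 3. In a fit that blocked on this number, the adjusted p of the subunits ran from 4.23e-05 for CCT3 to 0.00163 for CCT8, and 13.9% of all rows passed as lower. With DESeq2, the tool the study used, the 8 subunits also passed as lower, with adjusted p from 2.89e-07 to 0.000583, as did 8.41% of the rows to which it gave an adjusted p. Ordered by p in the edgeR fit, the subunits stood between rank 258 and rank 718 of the 15957 rows.

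The 8 subunits kept close to each other within each library. The correlation of each subunit with the mean of the other 7 across the 6 libraries lay between 0.969 (CCT8) and 0.996 (CCT7), where the points share depth and scaling and fall into the treatment groups, so the value is a description. Treated replicate 1 was the highest treated library for all 8 subunits and treated replicate 3 the lowest for 6. Among non-treated libraries, replicate 1 was the highest for 5 and replicate 2 the lowest for 6. By the same likeness, the genes of at least equal level that followed the subunits most closely were XRCC6, the Ku70 protein of DNA end joining (r = 0.997), PDHA1 of the pyruvate dehydrogenase complex, LDHB, a subunit of lactate dehydrogenase, the chromatin protein HMGB1 and the formin DIAPH1 (r = 0.993), in this order out of 833 genes compared. These 5 genes were picked for a profile that the treatment difference sets, so a fall was fixed by the choice. Each was lower with an adjusted p under the threshold, with log2 fold changes from -0.43 for LDHB to -0.30 for DIAPH1, and none of them passed in edgeR without non-treated replicate 1 or treated replicate 2 (adjusted p 0.0690 to 0.163).

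Levels between genes were compared per kilobase of merged exons. In non-treated cells CCT6A stood at 190 ± 9.58 CPM per kb (SD, n = 3), followed by CCT3 at 176 ± 8.78, CCT5 at 151 ± 6.98, CCT4 at 116 ± 3.18, CCT7 at 111 ± 3.59, CCT2 at 71.5 ± 2.06, CCT8 at 70.0 ± 2.69 and TCP1 at 50.3 ± 2.87. The libraries of CCT6A and CCT3, of CCT4 and CCT7, and of CCT2 and CCT8 overlapped in range. Within a library, CCT6A was above CCT3 in every non-treated library. The order of CCT4 and CCT7 and that of CCT2 and CCT8 varied between libraries. In 6j treated cells the order was the same except that CCT8 (55.2 ± 0.467) stood above CCT2 (52.0 ± 2.84), and the libraries of these genes no longer overlapped. There the libraries of CCT6A and CCT3 and of CCT3 and CCT5 overlapped, while those of CCT4 lay above those of CCT7. The order rests on the length chosen. Per kilobase of the longest coding transcript, CCT3 came before CCT6A, and CCT7 and CCT2 before CCT4, while TCP1 stayed the lowest. By that length CCT2 stood above CCT8 in both groups, so the change of their order was not seen. The means of CCT2 and CCT8 were then 141 and 117 CPM per kb in non-treated cells, and 103 and 91.9 in 6j treated cells.

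The share of each subunit in the summed level of the 8 within a library was used to ask whether any of them moved apart from the rest. CCT3 had 19.4%, 18.8% and 18.2% of the sum in non-treated and 18.5%, 16.9% and 17.3% in 6j treated cells. CCT8 had 7.17%, 7.52% and 7.79% and then 7.70%, 8.33% and 8.48%. These were the ends of the range, with a change in the log2 share of -0.10 for CCT3 and 0.12 for CCT8, and the groups overlapped for all 8 subunits. The exact two-sided permutation test over libraries gave p from 0.2 to 0.9 (0.4 to 0.9 after Benjamini-Hochberg adjustment over the 8), in a design that cannot go below 0.1. Within the pairs of equal replicate number, the log2 share of CCT8 changed by 0.10, 0.15 and 0.12, that of CCT4 by 0.14, 0.05 and 0.09 and that of CCT3 by -0.07, -0.15 and -0.08. CCT8, CCT4 and TCP1 thus had a higher share in all 3 pairs and CCT3 a lower one, while the sign varied between pairs for the other 4. An exact two-sided sign-flip permutation test over the 3 pairs gave p = 0.25 for each of the 4 subunits with 1 sign, the smallest it can give (0.5 after adjustment over the 8), so neither test could pass the threshold in this design.

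**Figure D2:**
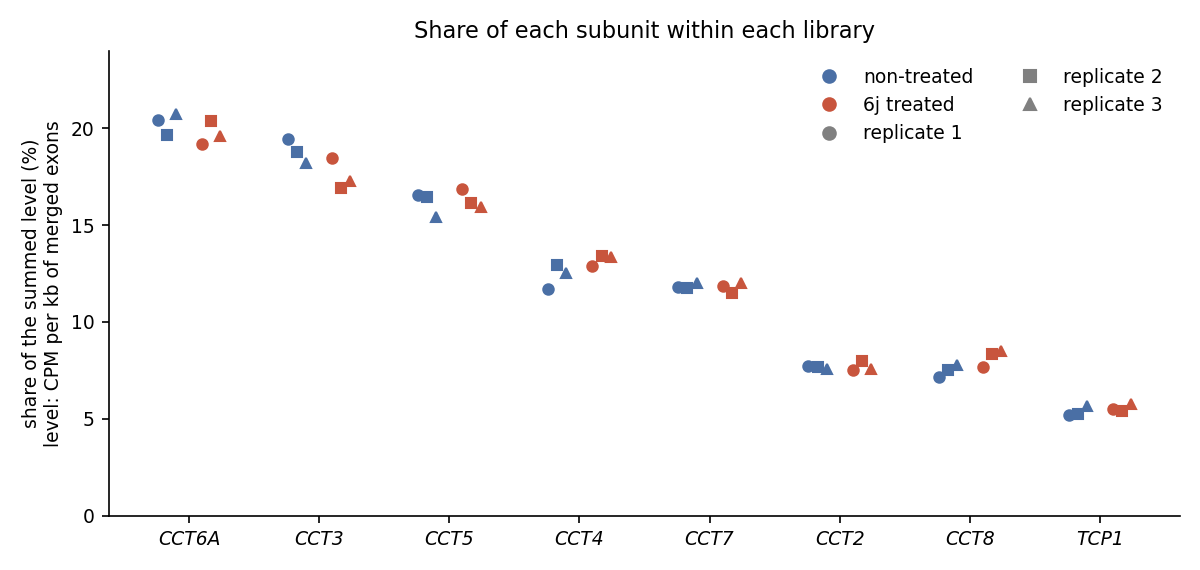
Share of each subunit (%) in the summed level of the 8 subunits within each library, from CPM per kb of merged exons, in non-treated (blue) and 6j treated (red) libraries, with marker shapes for the replicate number. Red and blue points overlap for every subunit, from CCT6A near 20% to TCP1 between 5.21% and 5.77%.

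None of the near copies of the subunit genes passed the test, where 4.37% of all rows passed as lower and 4.79% as higher. With so few genes this is not a result about them. CCT6B, the zeta gene best known from testis, was at 0.557, 0.888 and 0.862 CPM in non-treated and 2.03, 1.40 and 1.40 CPM in 6j treated cells. All treated libraries were above the non-treated ones at this low level, but the log2 fold change of 1.07 ± 0.36 did not pass (edgeR adjusted p = 0.0961). The treated libraries were all above in 2546 of the 15957 rows tested. CCT8L2 had no count in any library. MKKS, BBS10 and BBS12, which resemble the chaperonin and serve the assembly of the BBSome at the cilium, had log2 fold changes of 0.23, -0.03 and 0.09, and none passed. The 13 annotated pseudogenes of the subunits, such as CCT6P1 and CCT6P3, have no row in the table, and how reads shared with them were assigned is not given in the sources used here.

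Prefoldin and the phosducin-like proteins bring clients to the chaperonin or bind with them. None of 9 prefoldin and prefoldin-like subunits passed, with a median log2 fold change of -0.11. Over all rows tested, 4.37% passed as lower and 4.79% as higher. At these shares, no call among so few genes is not a result about them. The SD of the log2 fold change among these 9 was 0.189, and among the 8 chaperonin subunits it was 0.0702. PFDN2, a beta-type subunit of the prefoldin jaw, was at 61.2, 51.2 and 58.4 CPM in non-treated and 69.2, 68.9 and 83.1 CPM in 6j treated cells. PFDN2 was thus above its non-treated range in every treated library, with a log2 fold change of 0.37 (edgeR adjusted p = 0.0579, with the replicate block 0.00306, DESeq2 0.0215). Of all 15957 rows tested, 2546 had every treated library above the non-treated ones. PFDN6 stood at -0.30 (edgeR adjusted p = 0.110, and 0.00872 with the replicate block), PFDN1 at -0.17 and PFDN5 at -0.16, and none of these passed in edgeR with all libraries. Of the phosducin-like proteins, PDCL2 had no count, and PDCL3 (-0.32, adjusted p = 0.239 in edgeR and 0.0469 with the replicate block), PDCL (-0.14) and TXNDC9 (-0.04) did not pass.

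The tubulin cofactors take tubulin over from the chaperonin and join its alpha and beta chains. Of their 7 rows, 2 passed, both lower, where 4.37% of all rows tested passed as lower. TBCD, which holds beta-tubulin, was at 80.2, 86.5 and 79.7 CPM in non-treated and 58.9, 57.2 and 49.7 CPM in 6j treated cells. Its groups lay far apart and its log2 fold change was -0.57 ± 0.09 (edgeR adjusted p = 0.00994). TBCB, an alpha-tubulin cofactor, fell by 0.42 on the log2 scale (edgeR adjusted p = 0.0229). TBCA, a beta-tubulin cofactor, had a log2 fold change of -0.36 (edgeR adjusted p = 0.0558, with the replicate block 0.00115, DESeq2 0.0193). TBCC at 0.01, both rows of TBCE and the tubulin autoregulation factor TTC5 at -0.07 did not pass. Without non-treated replicate 1 none of the cofactors passed in edgeR, and without non-treated replicate 2 or 3, or treated replicate 2, 1 did. Of all rows tested, 63 of 16315 passed as lower without non-treated replicate 1, and 65 of 16295 without treated replicate 2. Without non-treated replicate 2 or 3 this was 258 of 16373 and 261 of 16364. TBCA passed without treated replicate 3 (adjusted p = 0.0376), as did PFDN6 (0.0415).

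The clients were read in 2 groups, the cytoskeletal ones and the others. Over all rows tested, 4.37% passed as lower and 4.79% as higher in edgeR. Among the 861 rows with a mean level at least that of the lowest subunit, 9.87% passed as lower. Of 15 actin and tubulin genes, all had a negative log2 fold change, 9 passed as lower and none as higher, and the median of -0.53 was below that of the subunits. ACTB, cytoplasmic beta-actin, was at 2283, 2346 and 2189 CPM in non-treated and 1584, 1259 and 1384 CPM in 6j treated cells, a log2 fold change of -0.69 (edgeR adjusted p = 0.00920). The groups of ACTB did not overlap, and the same was so for TUBB4B (-0.80), TUBA1B (-0.71) and gamma-tubulin, TUBG1 (-0.57), which also passed. Over all rows, 15.8% had every treated library below the non-treated ones. Of 18 WD40 and other clients, 2 passed as lower and 1 as higher, with a median of -0.06. Beside the shares over all rows, these counts are too small to be read as a result about this group. Those that passed were CDC20, an activator of the anaphase-promoting complex (-0.51, edgeR adjusted p = 0.0220), the mitotic kinase PLK1 (-0.44, 0.0369) and VHL, the substrate receptor of a ubiquitin ligase (0.42, 0.0264). With the replicate block, under which 13.9% of all rows passed as lower and 13.1% as higher, 6 of these 18 passed as lower and 3 as higher, among them WRAP53, which carries telomerase RNA (-0.27, adjusted p = 0.110 in edgeR and 0.0259 with the block). In edgeR, CDC20 did not pass when non-treated replicate 1 or 3 or treated replicate 2 was left out (adjusted p 0.0683 to 0.102), VHL when non-treated replicate 1 or 2 or treated replicate 2 was (0.0930 to 0.120), and PLK1 with any library left out but treated replicate 1 (0.0770 to 0.154).

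**Figure D3:**
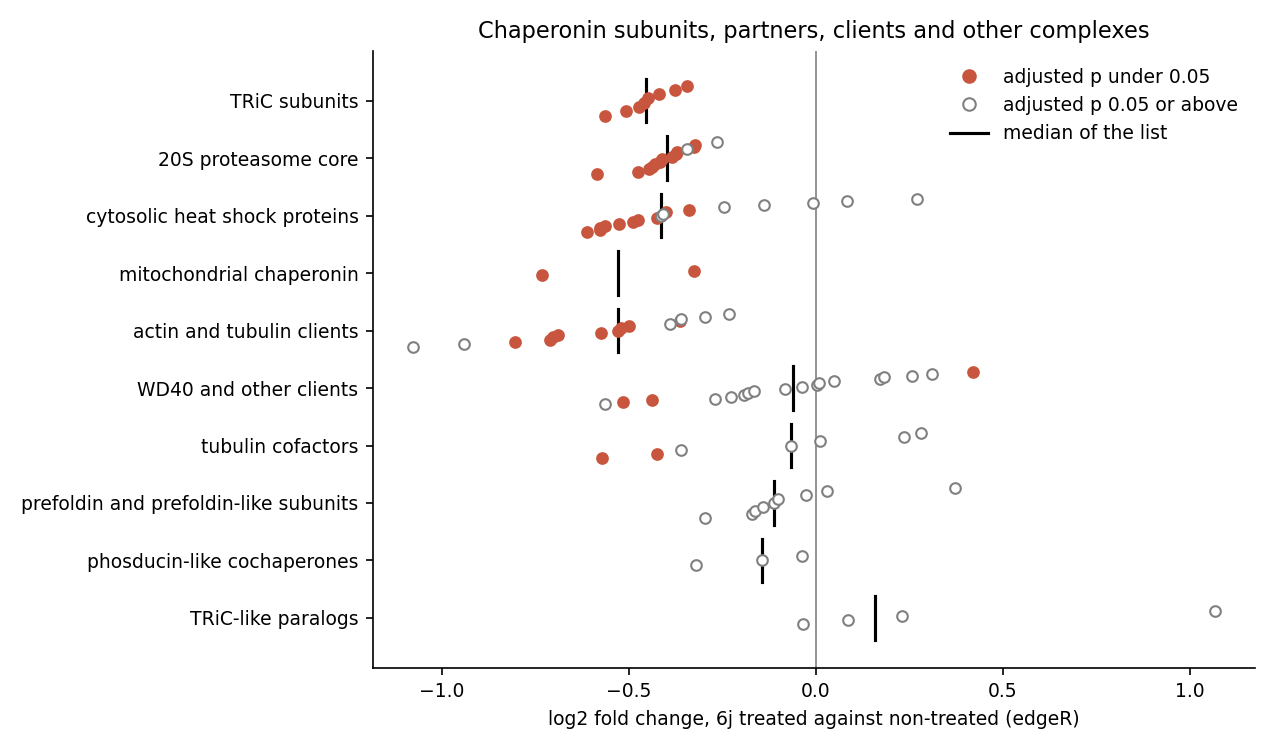
Log2 fold change (edgeR, 6j treated against non-treated) of each tested member of the chaperonin, its paralogs, partners and clients and of other chaperone and proteasome lists, with filled points for an adjusted p under 0.05, open points for the others and a bar for the median of a list. The 8 subunits lie between -0.56 and -0.34 and are all filled, whereas the prefoldin points are all open and spread around -0.11.

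Other folding machines and a complex of similar build were set beside the subunits. Their counts stand beside 4.37% of all rows that passed as lower in edgeR. Among the 861 rows with a mean level at least that of the lowest subunit, 9.87% did. The mitochondrial chaperonin consists of HSPD1, its barrel, and HSPE1, its lid, and both passed as lower, at -0.33 (edgeR adjusted p = 0.0469) and -0.73 (0.00360). HSPE1 passed without each library in turn (edgeR adjusted p up to 0.0302), and HSPD1 did not pass without any one of them (0.0640 to 0.201). A list of 17 genes held cytosolic heat shock proteins, cochaperones and the heat shock factors HSF1 and HSF2. Of these 17, 10 passed as lower and none as higher, with a median of -0.41. Only HSF1 (0.08) and HSF2 (0.27) had a positive log2 fold change. HSF1 did not pass, and HSF2 passed with the replicate block alone (adjusted p = 0.116 in edgeR and 0.0496 with the block). HSP90AA1 and HSP90AB1, the inducible and constitutive cytosolic Hsp90, were both at -0.58, their activator AHSA1 at -0.56 and the Hsp90 cochaperone FKBP4 at -0.48. The 14 subunits of the 20S proteasome core, which like the chaperonin subunits are needed in equal number, had a median of -0.40 and a spread of SD 0.0782. Of these, 12 passed as lower and none as higher, led by PSMB3 (-0.59), PSMB6 (-0.43), PSMB5 (-0.44) and PSMA2 (-0.47). These counts leaned on the same libraries as those of the subunits. Without non-treated replicate 1, 1 of the 14 proteasome subunits, 1 of the 17 genes of the heat shock list and none of the 15 actin and tubulin genes passed as lower. Without treated replicate 2 the counts were 1, 3 and 4. In these 2 fits only 63 of 16315 and 65 of 16295 rows tested passed as lower, so the shares above do not apply to them.

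Several subunit genes stand head to head with, or overlap, another gene, and these neighbours were read beside them, by GENCODE starts and exons. CCT6A (chr7:56051630-56063989, GRCh38, plus strand) starts 26 bases from PSPH, the last enzyme of serine synthesis, on the opposite strand. PSPH was at 56.7, 69.9 and 53.4 CPM in non-treated and 123, 148 and 109 CPM in 6j treated cells. Every treated library was well above every non-treated one, and the log2 fold change was 1.08 ± 0.14 (edgeR adjusted p = 0.00559), opposite in sign to that of CCT6A. PSPH kept its call without each library in turn. The log2 ratio of PSPH to CCT6A changed by 1.58 (exact permutation p = 0.1, the smallest that 3 against 3 libraries allow, and 0.35 after adjustment over 7 pairs).

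TCP1 (chr6:159778498-159789749, minus strand) shares 397 exon bases at its end with ACAT2, a thiolase of the sterol pathway on the opposite strand. ACAT2 measured 80.8, 95.0 and 56.1 CPM in non-treated and 122, 122 and 102 CPM in 6j treated cells. All treated libraries were above the non-treated ones, with a log2 fold change of 0.58 ± 0.18 that did not pass in edgeR (adjusted p = 0.0917) but did with the replicate block (0.00161), in DESeq2 (0.00713) and, in edgeR, without non-treated replicate 2 (0.0480). Whether reads were counted by strand is not given in the sources used here, so in the shared bases reads of TCP1 and ACAT2 cannot be told apart. MRPL18, 63 bases from the GENCODE start of TCP1, stood at -0.23 on the log2 scale (edgeR adjusted p = 0.165, and 0.0496 with the replicate block).

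The other neighbours did not pass. COMMD1, which starts 80 bases from CCT4 and shares 81 exon bases with it, had a log2 fold change of -0.30, FAM173B, a lysine methyltransferase of mitochondria 24 bases from CCT5, of -0.28, and PRADC1, 182 bases from CCT7 (chr2:73233420-73253021, plus strand), of -0.04. TSACC, which lies within the span of CCT3 (chr1:156308968-156367873) and shares no exon base with it, was at 1.14 to 2.47 CPM. The ratios of these 4 genes and of MRPL18 to their subunits gave exact permutation p from 0.2 to 0.7. CCT5 (chr5:10249921-10266412, plus strand) also shares 1757 exon bases with the antisense gene AC012640.4 and CCT4 (chr2:61868089-61888804, minus strand) 275 with AC107081.2. Neither antisense gene has a row in the table, and without knowledge of strand their reads cannot be told apart from those of the subunits. No neighbour on the opposite strand with shared exons or a near start was found in the table for CCT2 (chr12:69585334-69601570, plus strand) or CCT8 (chr21:29055805-29073797, minus strand). The microRNA gene MIR3913-1, which starts 511 bases from CCT2 on the opposite strand, has no row in the table. The part of neighbouring genes in the subunit results was not tested.

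**Figure D4:**
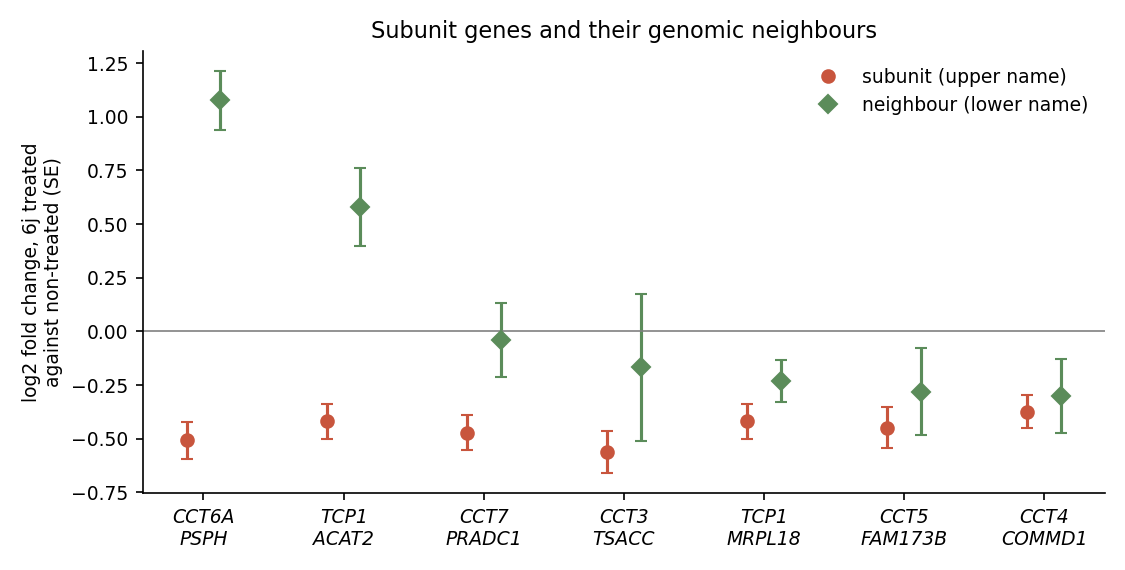
Log2 fold change (edgeR, 6j treated against non-treated, bars show the SE) of subunit genes (red circles, upper names) and of the gene that overlaps or starts beside each (green diamonds, lower names). PSPH at 1.08 and ACAT2 at 0.58 lie above 0 while their partners CCT6A and TCP1 lie below it.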

How the data were processed

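Polyadenylated RNA of 3 non-treated and 3 6j treated samples of MHCC-97H cells was sequenced. The table deposited by the authors holds unnormalized whole-number counts, with 1 row per gene. The submitters' processing notes name HISAT2, StringTie and GRCh38, while the counting program, its strand setting and the annotation are not given in the sources used here, nor whether the counts are reads or rounded estimates. Of 25445 rows, 5471 were genes of the authors' own assembly without an Ensembl identifier, and 27 symbols turned into dates were replaced by those of GENCODE version 29, which also gave coordinates and exon lengths.

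Counts were scaled by TMM and tested with edgeR 4.0.16 (R 4.3.3) by robust quasi-likelihood fits after filterByExpr, with Benjamini-Hochberg adjustment over the 15957 rows kept. SEs were derived from the F statistic. DESeq2 1.42.0, other scalings and filters, Ensembl rows only and leaving out each library were alternatives. Libraries held 31533403 to 38018349 counts, which sets the counting error and no other. The fits were tested on simulated counts. Shares and ratios were compared by exact permutation in Python 3.11.15 with scipy 1.17.1.

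Libraries of the same replicate number deviated together from their group means (r = 0.171, 0.180 and 0.312 across rows, against -0.231 to 0.0795 for different numbers), so the numbers were taken to pair the libraries. What a number marks is not stated.

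The subunits and the 12 gene lists were chosen with earlier results of these data known. Named are all subunits, up to 4 members of each list by smallest adjusted p, lists of up to 6 genes whole, genes that overlap a subunit gene or start within 1000 bases of it on the opposite strand, its pseudogenes, and the 5 genes most alike. KRT18, ALB, AFP, TTR, PTPRC, COL1A1, COL1A2, CD68, HSF1, HSF2, and WRAP53 as an example of calls made with the block, were named after their values had been seen. The ratio tests of neighbours and the test of shares within pairs were added then too. Windows around annotated starts came from RefSeq (GRCh38.p14), which matched 7 of the 8 subunits.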

Additional observations from a re-analysis of the deposited data

How the results depend on the processing

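The 8 subunits were lower under every alternative run, which the order of the libraries implies where a library was left out. All 8 passed with DESeq2 size factors, total counts only, no filter, DESeq2, the replicate block and Ensembl rows only. With a fold change above 1.5 asked as well, 0 of 8 passed. Leaving out 1 library gave 0 to 8 passing subunits, a median log2 fold change between -0.51 and -0.41, and 202 to 1608 passing rows, against 1462 with all libraries, 2367 with DESeq2 and 4297 with the replicate block. Apart from the calls given beside the results, the block changed no call of a named gene that is reported here. PFDN2 passed with total counts only (edgeR adjusted p = 0.0431), no filter (0.0391) and Ensembl rows only (0.0473), and TBCA with no filter (0.0414), while HSPD1 did not pass with total counts only (0.0614), nor DIAPH1 with total counts only (0.0541) or no filter (0.0511). The change in log2 share turned sign with a library left out for CCT2 (-0.0186 to 0.0218), CCT5 (-0.0165 to 0.0341) and CCT7 (-0.0215 to 0.0112), all within the spread of the libraries. With a library left out, the log2 fold change also turned sign for TSACC (-0.32 to 0.11), PRADC1 (-0.18 to 0.11), BBS12 (-0.037 to 0.24), TXNDC9 (-0.12 to 0.066), TBCC (-0.070 to 0.14) and TTC5 (-0.20 to 0.027), none of which passed. The cause of these shifts was not tested. With total counts only, the median of all rows moved to 0.0209, and 42.3% of passing rows were lower, against 47.7% with TMM. With 3 libraries per group, an exact test over libraries cannot go below p = 0.1, and one over the 3 pairs not below 0.25.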
